A study of Mus musculus with 20 samples.

Results

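Plasma membrane amino acid transporters bring in the amino acids that a cell uses for protein synthesis and that switch on the growth kinase complex mTORC1. Here 8 of their genes were followed in mouse heart ventricle by RNA sequencing: Slc1a5, Slc7a5, Slc3a2, Slc7a6, Slc7a11, Slc38a1, Slc38a2 and Slc7a1. They were chosen by name, as transporters that feed mTORC1, and are 8 of the 21705 genes with a value. The hearts came from male C57Bl/J6 mice, either Acsl1H-/- mice, whose hearts lose Acsl1 after tamoxifen (knockout), or littermate Acsl1flox/flox mice (control). Both genotypes received tamoxifen at 75 mg/kg on 4 days at 6 to 8 weeks of age. Both were then given daily rapamycin at 1 mg/kg, which inhibits mTORC1, or vehicle for 2 weeks, and hearts were taken 2 weeks after tamoxifen. This gave 4 groups of 5 libraries: control vehicle, knockout vehicle, control rapamycin and knockout rapamycin. The sources used here do not name the Cre line, and an effect of Cre cannot be told apart from the loss of Acsl1, the enzyme that activates long-chain fatty acids in heart.

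The proteins work as a circuit. ASCT2 (Slc1a5) and the sodium-coupled carriers SNAT1 and SNAT2 (Slc38a1 and Slc38a2) load cells with glutamine and other small neutral amino acids. LAT1 (Slc7a5) then exchanges intracellular glutamine for leucine, which the sestrin sensors report to mTORC1 at the lysosome. LAT1, y+LAT2 (Slc7a6) and xCT (Slc7a11) are light chains that reach the cell surface only when bound to the heavy chain 4F2hc (Slc3a2), while CAT1 (Slc7a1) carries arginine on its own. Cells starved of amino acids make the factor ATF4, which is known to raise several of these genes, Slc7a11, Slc3a2 and Slc38a2 among them.

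In the GRCm38 annotation, Slc1a5 (Entrez 20514) lies at chr7:16781340-16798274, Slc7a5 (20539) at chr8:121881150-121907694, Slc3a2 (17254) at chr19:8706882-8723369 and Slc7a6 (330836) at chr8:106168857-106198706. Slc7a11 (26570) lies at chr3:49892526-50443614 and Slc7a1 (11987) at chr5:148327410-148399904. Slc38a1 (105727), at chr15:96571418-96642913, and Slc38a2 (67760), at chr15:96687392-96699730, are neighbours on the same strand.

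The promoters of Slc7a11 and Slc3a2 are shown because these genes encode the chains of one cystine and glutamate exchanger and their values moved together, as given below. The 250 bases before each start are from RefSeq (GRCm38.p6), both on the minus strand, at chr3:50443614-50443863 for Slc7a11 and chr19:8713898-8714147 for Slc3a2. Capitals mark the amino acid response element that ATF4 binds, searched as TGATGNAAN on both strands.
Slc7a11: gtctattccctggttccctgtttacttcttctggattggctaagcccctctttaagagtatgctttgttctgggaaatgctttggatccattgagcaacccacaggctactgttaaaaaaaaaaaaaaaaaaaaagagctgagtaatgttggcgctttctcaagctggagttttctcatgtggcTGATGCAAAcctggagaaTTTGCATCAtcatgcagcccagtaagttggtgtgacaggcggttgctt
Slc3a2: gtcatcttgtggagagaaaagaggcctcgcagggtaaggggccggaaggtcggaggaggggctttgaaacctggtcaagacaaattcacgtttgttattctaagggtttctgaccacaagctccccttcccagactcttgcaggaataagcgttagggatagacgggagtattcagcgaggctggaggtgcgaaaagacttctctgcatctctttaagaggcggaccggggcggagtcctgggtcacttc
The Slc7a11 window held 2 such elements, 1 on each strand, and no other of the 7 windows found for 5 of the 8 genes held one. Elements outside these 250 bases were not searched. The Slc3a2 window lies inside the span of the gene given above, so it precedes an internal start. Of 32851 promoters, 3.44% held the element. The MYC-binding E-box CACGTG, found in 6.02% of promoters, was in none of the 7 windows. The antioxidant element core TGACNNNGC, found in 10.2% of promoters, was in 1 window each of Slc38a2, Slc7a1 and Slc7a6. A match of letters is no measure of binding. Slc1a5, Slc7a5 and Slc38a1 are named only.

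A second sequence bears on how Slc7a11 was measured. The longest annotated Slc7a11 transcript has 9223 bases, of which bases 351 to 1856 are coding. Its 3' untranslated region holds, between bases 3399 and 4356, a stretch that matches the alpha-tubulin messenger Tuba1b in antisense, with 92.5% identity over 585 aligned bases and 96.2% over 373. Together they cover 957 bases, 10.4% of the transcript, and the longest run without a mismatch is 121 bases. The lines below show 30 bases of that run in each gene, read 5' to 3'.
Slc7a11: ctgctacagaaagctgctcatggtaggctt
Tuba1b: aagcctaccatgagcagctttctgtagcag
None of the other 7 transporters had a match to another gene of at least 200 bases at 90% identity. The sources used here do not say whether reads were assigned by strand, so reads that lie within a run without mismatches cannot be assigned to Slc7a11 or Tuba1b with certainty. In all, 15 other genes, 4 of them protein coding, matched a stretch of Slc7a11, and the Tuba1b stretch also matched Tuba1a, Tuba1c and the pseudogene Gm6682. The Slc7a11 values below are therefore uncertain.

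The deposited numbers, called values here, are RSEM expression estimates whose upper quartile is close to 1000 for every library. Implied depth ran from 11.5 to 21.1 M reads per library (median 15.2 M), and every transporter had a value above 0 in all 20 libraries. The thinnest, Slc7a6, rested on at least 45 implied reads per library. Acsl1 was at 10084 ± 3166 in control vehicle and 1257 ± 381 in knockout vehicle hearts, and at 12639 ± 2346 and 1224 ± 520 under rapamycin (SD, n = 5 each). No knockout library overlapped a control library, and knockout hearts kept 12.5% and 9.68% of the control level. Control vehicle libraries 1 and 3 stood apart. A long-transcript score, which compares transcripts of great with those of small length, was -0.904 and -1.003 there. It lay between -0.36 and 0.48 in 18 of the 20. The cardiomyocyte markers were high in every library (summed value 1490920 to 1839520 for 8 genes). The 6 atrial markers, which ventricle should hold little of, summed to 1675 to 6288 in control vehicle libraries. They summed to 4483 to 63976 in knockout vehicle, 1937 to 35064 in control rapamycin and 8450 to 59362 in knockout rapamycin libraries. The ventricle is a mixed tissue, so fewer cells of a type and less RNA per cell cannot be told apart in any of these values.

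Per kilobase of transcript, SNAT2 was the leading carrier and the LAT1 and y+LAT2 light chains were the scarcest. Slc38a2 was at 1338 ± 181 per kb (SD, n = 20) and the heavy chain Slc3a2 at 478 ± 66.0 per kb. Slc7a1 at 199 ± 38.9, Slc1a5 at 168 ± 42.4 and Slc7a11 at 168 ± 53.3 per kb did not differ beyond their spread. Slc38a1 was at 74.0 ± 19.1, Slc7a5 at 55.3 ± 8.54 and Slc7a6 at 39.7 ± 7.75 per kb, and each overlapped its neighbour within 1 SD. These SDs are taken over all 20 libraries, so their overlap does not compare genes within a library. The mean per kb of Slc7a5 was above that of Slc7a6 in each of the 4 groups. Slc38a1 had a higher mean than Slc7a5 in every group but control vehicle. The heavy chain stood above each of the 3 light chains among the 8 genes in this order of levels, though the Slc7a11 level is uncertain. The spread over the 20 libraries, as a coefficient of variation, ran from 13.5% for Slc38a2 to 31.7% for Slc7a11, with Slc1a5 at 25.2% and Slc38a1 at 25.8%.

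**Figure D1:**
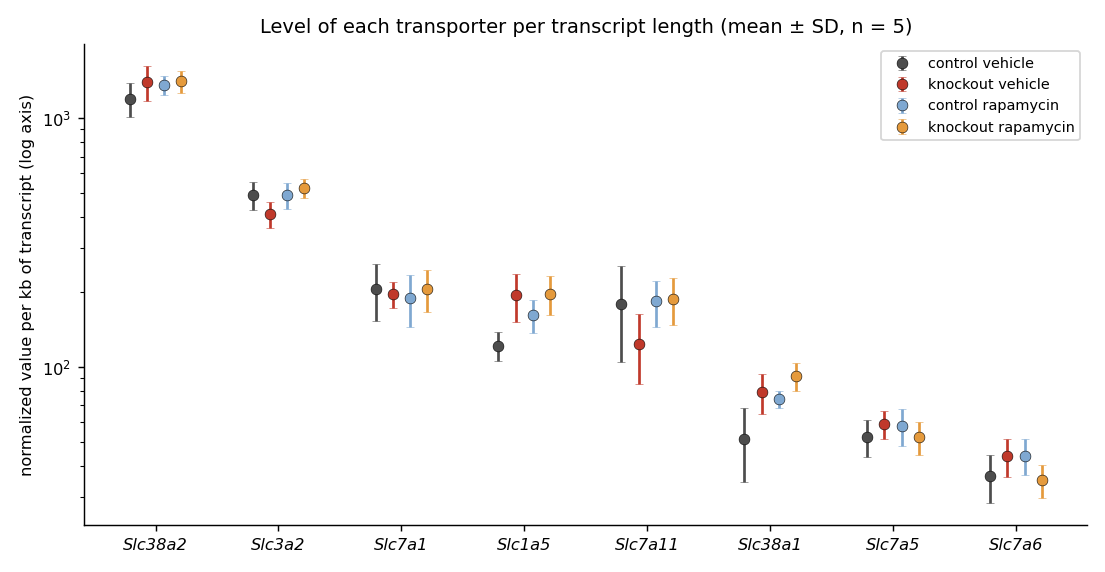
Level of each transporter per kilobase of its longest annotated transcript, on a log axis. Points are means of 5 libraries and bars 1 SD for the 4 groups; Slc38a2 (mean of all 20 libraries 1338 per kb) stands highest and Slc7a6 (39.7 per kb) lowest.

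The first question was whether hearts that had lost Acsl1 held more transporter messenger. Slc1a5 and Slc38a1 lay highest above control under vehicle, each at about 1.6 times the control level, but neither passed the threshold over all genes. Limma called 0 of the 8 transporters in knockout against control under vehicle, where it called 33 of 13548 genes, or 0.244%, at an adjusted p under 0.05. At an unadjusted p under 0.05 the count was 3 of 8 transporters (Slc1a5, Slc38a1 and Slc3a2), beside 4315 genes, or 31.8%, so a count of this size says little about the 8. The median log2 difference of the 8 was 0.20, against 0.07 over all genes tested.

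For ASCT2, the glutamine exchanger, knockout and control hearts under vehicle did not overlap, the 1 such case among the 8 transporters in the 4 comparisons of 2 groups that differ in genotype or in drug. Slc1a5 had values of 308, 373, 285, 326 and 389 in control vehicle libraries 1 to 5. In knockout vehicle libraries it had 469, 525, 718, 403 and 562. Every knockout value lay above every control value, as was the case for 196 of the genes tested, or 1.45%, in that direction. The fitted log2 difference was 0.65 (SE 0.16, 95% interval 0.33 to 0.98, adjusted p = 0.0717). In the 4 sequencing pools it was 0.56, 0.49, 1.15 and 0.05, so knockout was above control in each, by little in pool 4. Pools 2 and 4 hold 1 library of each of these groups. Pool 1 holds 1 knockout and 2 control libraries, and pool 3 holds 2 and 1.

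Whether Slc1a5 was called depended on which libraries were fitted. With 1 library left out, its log2 difference stayed between 0.54 and 0.75 and its adjusted p ran from 0.0304 to 0.223. It was called without control vehicle 4 (adjusted p = 0.0486), without control vehicle 5 (0.0304) and without knockout vehicle 5 (0.0360). Those fits called 343, 3089 and 2565 of 13548 genes, against 33 with all libraries, so the gained call went with many others. Without control vehicle libraries 1 and 3 the log2 difference was 0.54 (adjusted p = 0.628).

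SNAT1, a concentrative glutamine carrier, followed with more overlap. Slc38a1 had values of 286, 339, 241, 529 and 465.9 in control vehicle libraries. In knockout vehicle libraries it had 582, 620.4, 391.7, 614 and 654. The knockout libraries other than number 3 were above every control. The log2 difference was 0.66 (SE 0.18, 95% interval 0.28 to 1.04, adjusted p = 0.0862), and 0.58, 0.87, 1.07 and 0.40 in the 4 pools. The lowest controls were libraries 1 and 3, which stood apart, and without both the difference was 0.36 (adjusted p = 0.714). It too was called without control vehicle 4 (0.80, adjusted p = 0.0371), without control vehicle 5 (0.75, adjusted p = 0.0314) and without knockout vehicle 5 (0.60, adjusted p = 0.0417), the same 3 fits, in which 343, 3089 and 2565 genes were called.

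SNAT2, its abundant neighbour on chromosome 15, differed less. Slc38a2 had values of 5868, 4657, 5218, 6939 and 5147 in control vehicle libraries. It had 7589.8, 7707, 5719.7, 5936 and 5640.1 in knockout vehicle libraries, and the groups overlapped. The log2 difference was 0.23 (SE 0.12, adjusted p = 0.190), with an interval of -0.02 to 0.48. Within a library, the log2 ratio of Slc38a1 to Slc38a2 was -3.95 ± 0.42 in control vehicle and -3.52 ± 0.32 in knockout vehicle hearts (SD, n = 5 each; exact permutation test, two-sided, p = 0.119, adjusted p = 0.308 over 16 ratio tests).

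**Figure D2:**
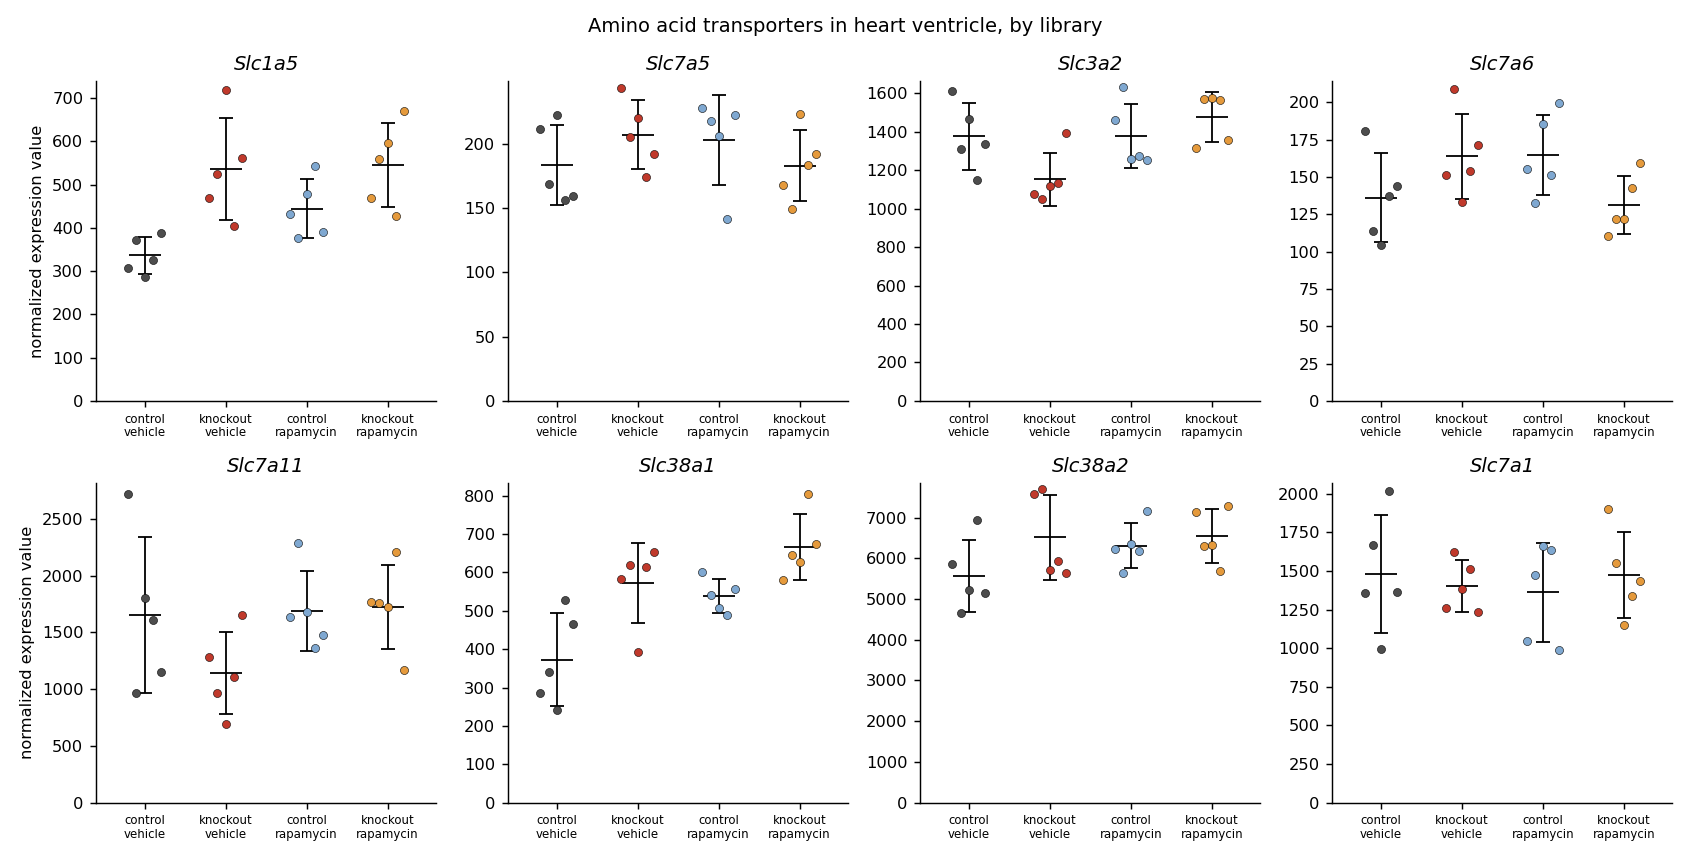
Normalized expression value of each transporter in all 20 libraries. Points are libraries, horizontal lines group means and bars 1 SD (n = 5); the 5 knockout vehicle values of Slc1a5 (403 to 718) sit above the 5 control vehicle values (285 to 389), while the other panels overlap between these groups.

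The heavy chain lay on the other side of 0. Slc3a2 had values of 1612, 1308, 1469, 1151 and 1338 in control vehicle libraries. In knockout vehicle libraries it had 1075, 1051, 1115, 1132 and 1393, so that libraries 1 to 4 were below every control and library 5 was among them. The log2 difference was -0.25 (SE 0.11, 95% interval -0.48 to -0.02, adjusted p = 0.132). It was -0.34, -0.32, -0.24 and -0.24 in the 4 pools, the same sign in each. It was called without knockout vehicle 5 (-0.32, adjusted p = 0.0472), where 2565 of 13548 genes were called, and was -0.14 without control vehicle libraries 1 and 3 (adjusted p = 0.839).

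The light chains of leucine and arginine exchange showed small differences under vehicle. Slc7a5 had values of 212, 169, 223, 156 and 159.7 in control vehicle libraries. It had 244, 206, 221, 174 and 192 in knockout vehicle libraries, a log2 difference of 0.18 (SE 0.15, interval -0.14 to 0.50, adjusted p = 0.411). The groups overlapped over most of their range, and without control vehicle libraries 1 and 3 the difference was 0.35 (adjusted p = 0.730). Slc7a6 had 181, 114, 104, 137 and 144 in control vehicle libraries. It had 151, 209, 133, 154 and 171 in knockout vehicle libraries (log2 difference 0.28, SE 0.16, adjusted p = 0.239). Knockout library 2 alone lay above every control, and the 4 pools gave -0.06, 0.87, 0.53 and 0.10.

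CAT1, the arginine carrier, had the smallest difference of the 8. Slc7a1 had values of 1359, 1667, 995, 2019 and 1364 in control vehicle libraries and 1257, 1624, 1384, 1512 and 1235 in knockout vehicle libraries. Its controls spanned the knockouts, with a log2 difference of -0.05 (SE 0.18, interval -0.43 to 0.34, adjusted p = 0.870). Without control vehicle libraries 1 and 3 it was -0.25 (adjusted p = 0.822).

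A ratio of LAT1 to its heavy chain within a library is all but free of library scaling. The value of Slc7a5 divided by that of Slc3a2, each with 1 added, was 0.132, 0.130, 0.152, 0.137 and 0.120 in control vehicle libraries. It was 0.228, 0.196, 0.199, 0.155 and 0.139 in knockout vehicle libraries, where libraries 1 to 4 were above every control. The log2 ratio was 0.43 higher in knockout hearts, at -2.47 ± 0.29 against -2.90 ± 0.13 (SD, n = 5 each; exact permutation test, two-sided, p = 0.0159). It did not pass over the 16 ratio tests (adjusted p = 0.190), and without control vehicle libraries 1 and 3 the ratio was 0.49 higher. The log2 ratio of Slc1a5 to Slc7a5, the 2 arms of glutamine and leucine exchange, was 1.35 ± 0.30 in knockout vehicle and 0.87 ± 0.40 in control vehicle hearts (exact permutation test, two-sided, p = 0.0794, adjusted p = 0.308). That of Slc7a11 to Slc3a2 was -0.07 ± 0.38 and 0.18 ± 0.49 (exact permutation test, two-sided, p = 0.381, adjusted p = 0.454).

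**Figure D3:**
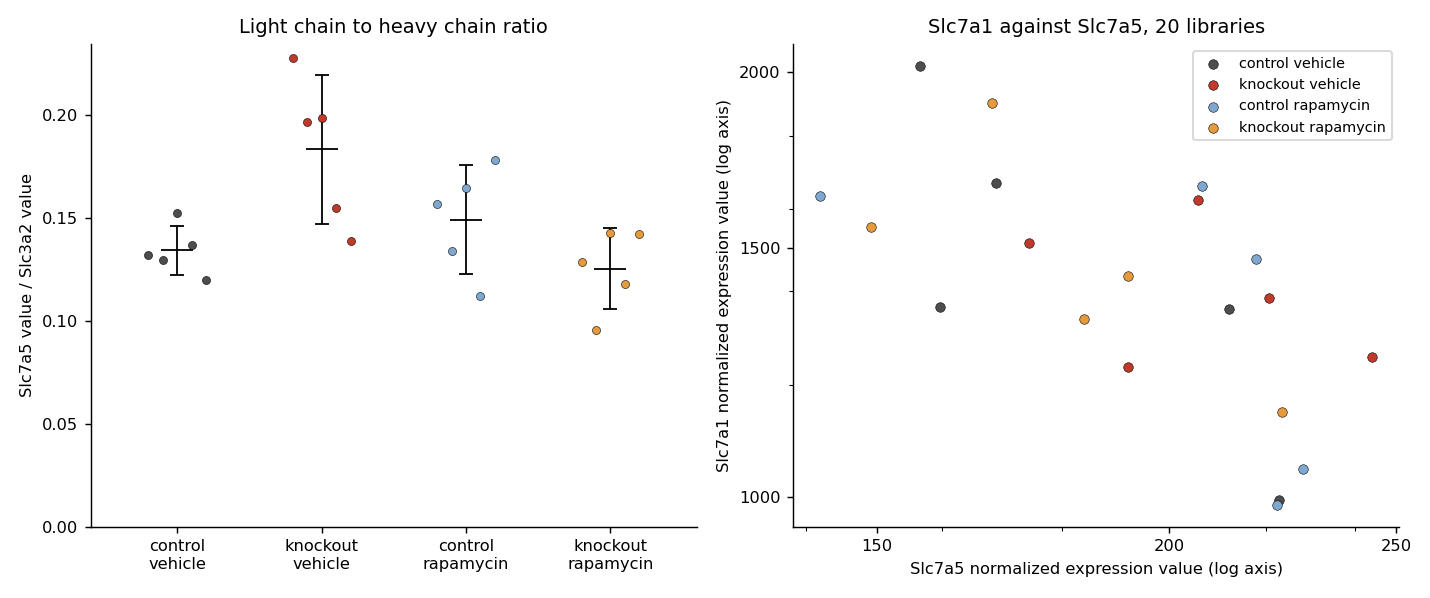
Left, the value of the light chain Slc7a5 divided by that of the heavy chain Slc3a2, by group, with points as libraries, lines as means and bars as 1 SD (n = 5). Right, Slc7a1 against Slc7a5 in the 20 libraries on log axes, where libraries with a high Slc7a5 value had a low Slc7a1 value (r = -0.66).

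The second question was what rapamycin did to the transporters in control hearts. Limma called 0 of the 8, and 0 of 13548 genes (0%), while 2 of 8 transporters and 2024 genes (14.9%) had an unadjusted p under 0.05. This comparison shares the control vehicle libraries with the knockout comparison above, so a low control vehicle group enters both. Slc38a1 had values of 600.0, 543, 506, 489 and 557 in control rapamycin libraries, all of them above 4 of the 5 control vehicle values and 3 of them above the highest, 529. The log2 difference was 0.59 (SE 0.18, adjusted p = 0.328; 0.62, 0.60, 1.07 and 0.26 in the 4 pools), and 0.30 without control vehicle libraries 1 and 3 (adjusted p = 1.0). Slc1a5 had values of 432, 378, 479, 543 and 391, of which library 2 alone fell within the control vehicle range. Its log2 difference was 0.40 (SE 0.16, adjusted p = 0.328), and 0.28 without control vehicle libraries 1 and 3.

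The other transporters lay close to vehicle or overlapped it in control hearts. Slc38a2 had 6222, 5635, 6354, 6193 and 7155 in control rapamycin libraries, a log2 difference of 0.19 (adjusted p = 0.395). Slc7a6 had 155, 133, 185, 151 and 199, a difference of 0.29 (adjusted p = 0.368). Slc3a2 had 1459.8, 1633, 1259, 1276 and 1253 and a difference of 0.00, with an interval of -0.23 to 0.23. That sign flips to -0.02 after quantile normalization and -0.05 after median-ratio rescaling, and the difference was 0.12 without control vehicle libraries 1 and 3. Slc7a5 had 228, 218, 207, 142 and 222, where library 4 lay far below the others. Its difference was 0.14 (adjusted p = 0.611), -0.01 after quantile normalization and 0.31 without control vehicle libraries 1 and 3. Slc7a1 split into a high and a low set of libraries, at 1047, 1475, 1659.9, 1634 and 988, with a difference of -0.12 (SE 0.18, adjusted p = 0.727), or -0.32 without those 2 control vehicle libraries.

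For rapamycin against vehicle in knockout hearts, the heavy chain had the lowest p of the 8, while Slc7a11, given further on, had the greater difference. Limma called 0 of the 8 transporters and 1 of 13548 genes (0.00738%), with 2 of 8 transporters and 774 genes (5.71%) at an unadjusted p under 0.05. The knockout vehicle libraries are shared with the knockout comparison under vehicle, so a low or high knockout vehicle group enters both, with opposite sign. The same libraries enter the interaction and the ratios of these comparisons. Slc3a2 had values of 1315, 1569.6, 1574, 1567 and 1356 in knockout rapamycin libraries, of which libraries 2 to 4 lay above all knockout vehicle values. The log2 difference was 0.36 (SE 0.11, 95% interval 0.13 to 0.59, adjusted p = 0.413), and 0.55, 0.32, 0.34 and 0.36 in the 4 pools. Slc38a1 had 579.9, 646, 627, 806 and 675, with a difference of 0.23 (adjusted p = 1.0) and an interval of -0.15 to 0.61. Slc1a5 had 469.7, 558, 596, 428 and 670.5, within the range of knockout vehicle, and a difference of 0.03 (SE 0.16).

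The light chains Slc7a5 and Slc7a6 lay on the other side of 0 from the heavy chain in this comparison. Slc7a6 had values of 110.2, 122, 122, 143 and 159 in knockout rapamycin libraries, a log2 difference of -0.31 (SE 0.16, adjusted p = 0.922). Slc7a5 had 168, 149, 223, 184 and 192, a difference of -0.18 (SE 0.15, adjusted p = 1.0). The ratio of Slc7a5 to Slc3a2 was 0.128, 0.0956, 0.142, 0.118 and 0.142. Libraries 3 and 5, at 0.142 each, lay just above the lowest knockout vehicle ratio of 0.139. The log2 ratio was 0.54 lower than under vehicle, at -3.01 ± 0.24 (SD, n = 5; exact permutation test, two-sided, p = 0.0238, adjusted p = 0.190 over 16 tests). Slc38a2, at 7132, 6306, 6332, 5686 and 7277, and Slc7a1, at 1901, 1552, 1149, 1337 and 1434, had differences of 0.01 and 0.06. That of Slc38a2 was -0.04 after quantile normalization.

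**Figure D4:**
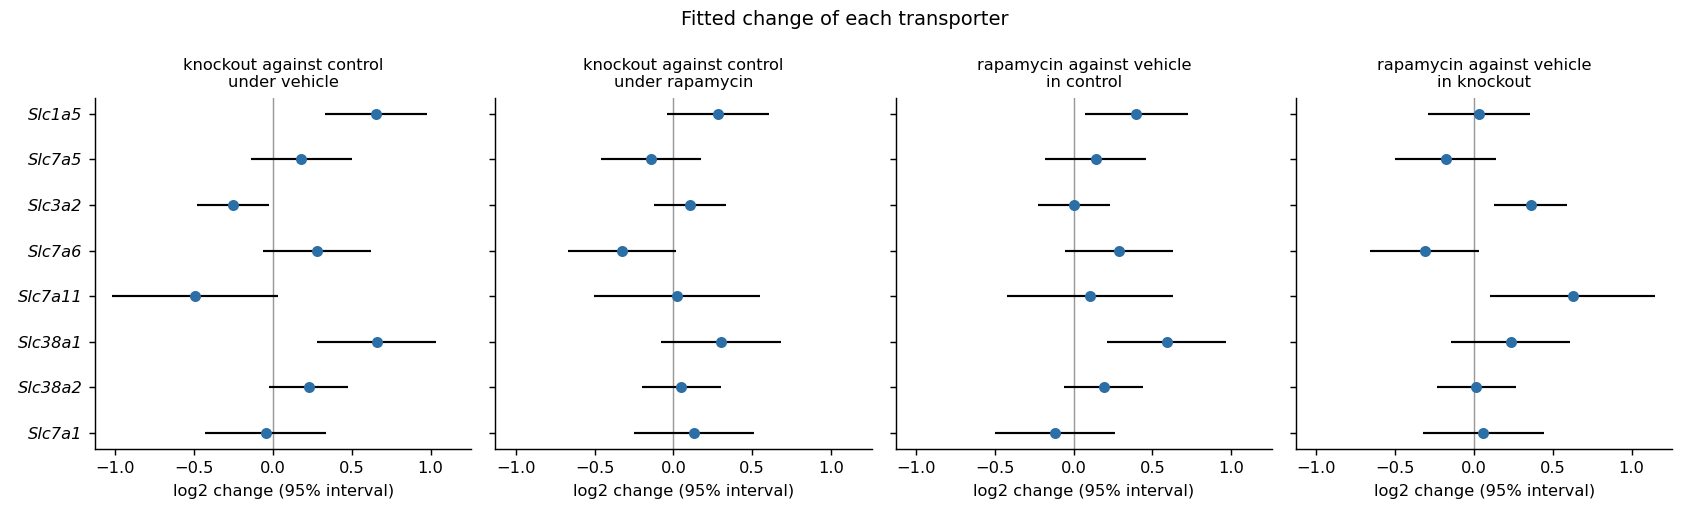
Fitted log2 difference of each transporter in the 4 comparisons of 2 groups, from the limma fit of all 20 libraries. Points are estimates and lines 95% intervals; the intervals that leave out 0 are those of Slc1a5 (0.33 to 0.98), Slc38a1 (0.28 to 1.04) and Slc3a2 (-0.48 to -0.02) for knockout under vehicle, Slc1a5 (0.07 to 0.72) and Slc38a1 (0.21 to 0.97) for rapamycin in control hearts, and Slc3a2 (0.13 to 0.59) and Slc7a11 (0.10 to 1.15) for rapamycin in knockout hearts. None passed the threshold adjusted over all genes.

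Between knockout and control hearts that both received rapamycin, the transporters differed by 0.32 or less on the log2 scale. Limma called 0 of the 8 transporters and 3 of 13548 genes (0.0221%), and no transporter had an unadjusted p under 0.05, beside 403 genes (2.97%). Slc38a1 had a log2 difference of 0.30 (interval -0.08 to 0.68), with 4 of 5 knockout libraries above every control, and Slc1a5 0.29 (interval -0.04 to 0.61). Slc7a6 was at -0.32 (interval -0.67 to 0.02), with -0.34, -0.36, -0.60 and -0.40 in the 4 pools. Slc3a2 was at 0.10, Slc38a2 at 0.05, Slc7a1 at 0.13 and Slc7a5 at -0.14, and the adjusted p of each was 1.0.

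The interaction asked whether the knockout difference itself depended on rapamycin. Limma called 0 of the 8 transporters and 0 of 13548 genes (0%), with 2 of 8 transporters and 1124 genes (8.30%) at an unadjusted p under 0.05. Slc7a6 had the lowest p of the 8. Its group means were 136, 164, 165 and 131 in control vehicle, knockout vehicle, control rapamycin and knockout rapamycin hearts, so knockout was above control under vehicle and below it under rapamycin. The interaction was -0.60 (SE 0.23, adjusted p = 0.523). For Slc3a2 it was 0.36 (SE 0.16, adjusted p = 0.523), the opposite sign. For Slc1a5 and Slc38a1 it was -0.37 (interval -0.82 to 0.09) and -0.36 (interval -0.89 to 0.18), so the knockout difference under rapamycin was not shown to be smaller. Without control vehicle libraries 1 and 3 the interaction of Slc38a1 was -0.06.

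Averaged over drug, which uses all 20 libraries, Slc1a5 came closest to a call. Its genotype difference was 0.47 (SE 0.11, 95% interval 0.24 to 0.70, adjusted p = 0.0580), where 60 of 13548 genes (0.443%) and 0 of 8 transporters were called. It was called without control vehicle 5 (adjusted p = 0.0458), knockout vehicle 4 (0.0397) or knockout rapamycin 4 (0.0465), where 150, 72 and 76 genes were called. It was 0.41 without control vehicle libraries 1 and 3 (adjusted p = 0.251). Slc38a1 followed at 0.48 (SE 0.13, adjusted p = 0.109), and was called without control vehicle 4 (adjusted p = 0.0446) or 5 (0.0496), where 55 and 150 genes were called. Of the rest, Slc38a2 was at 0.14, Slc7a1 at 0.04, Slc7a5 at 0.02, Slc7a6 at -0.02 and Slc3a2 at -0.07, and the intervals of all 5 held 0. The sign of Slc7a5 flips to -0.05 after quantile normalization. At an unadjusted p under 0.05 the count was 2 of 8 transporters, beside 2586 genes (19.1%).

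Averaged over genotype, rapamycin gave 0.41 for Slc38a1 (SE 0.13, adjusted p = 0.279; 0.27 without control vehicle libraries 1 and 3), 0.22 for Slc1a5 (adjusted p = 0.560) and 0.18 for Slc3a2 (SE 0.08, adjusted p = 0.479). Limma called 17 of 13548 genes (0.125%) and 0 of 8 transporters, and 2 of 8 had an unadjusted p under 0.05, beside 1251 genes (9.23%). Slc38a2 was at 0.10 (interval -0.07 to 0.28), Slc7a6 at -0.01, Slc7a5 at -0.02 and Slc7a1 at -0.03.

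Slc7a11, the cystine and glutamate exchanger chain, varied most of the 8 and overlapped between all groups. It had values of 2717, 963, 1803, 1613 and 1154 in control vehicle libraries and 1281, 967, 696, 1105 and 1654 in knockout vehicle libraries. Under rapamycin it had 1634, 2284, 1678, 1362 and 1480.4 in control and 1767, 1758, 1722, 2209.6 and 1165 in knockout libraries. The highest value was in control vehicle 1, one of the libraries that stood apart, and knockout vehicle held the lowest. The log2 difference was -0.50 for knockout under vehicle (SE 0.25, adjusted p = 0.176), or -0.15 without control vehicle libraries 1 and 3. It was 0.62 for rapamycin in knockout hearts (SE 0.25, adjusted p = 0.717), 0.10 for rapamycin in control hearts and 0.02 for knockout under rapamycin. The interaction was 0.52 (SE 0.36), the genotype average -0.24 and the drug average 0.36, none past the threshold. With control vehicle libraries 1 and 3 left out, rapamycin in control hearts was at 0.45, the interaction at 0.17 and the genotype average at -0.06.

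Tuba1b, whose messenger matches the stretch printed above, varied in step with it. Over the 20 libraries the log2 values of Slc7a11 and Tuba1b had r = 0.99 and rho = 0.98 (permutation p = 1e-05 each, the smallest that 100000 permutations can give). The r was 0.98 without the 2 libraries farthest from the median of Slc7a11 and 0.99 with group means or pool means removed. Slc7a11 was 10.9% to 13.3% of the Tuba1b value in every library (median 12.3%), while Slc7a11 itself ranged 3.9-fold and Tuba1b 4.2-fold. The fitted log2 differences of Tuba1b were -0.59 for knockout under vehicle and 0.66 for rapamycin in knockout hearts, beside -0.50 and 0.62 for Slc7a11. Of the others that match the stretch, Gm6682 had -0.50 and 0.59, Tuba1a -0.32 and 0.47, and Tuba1c -0.06 and 0.19. The log2 ratio of Slc7a11 to Tuba1b, chosen after seeing the data, differed by 0.09 and -0.04 in those comparisons, with the opposite signs (exact permutation test, two-sided, p = 0.0556 and 0.381, adjusted p = 0.222 and 0.646 over 4 tests). What share of the Slc7a11 reads came from tubulin was not tested.

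**Figure D5:**
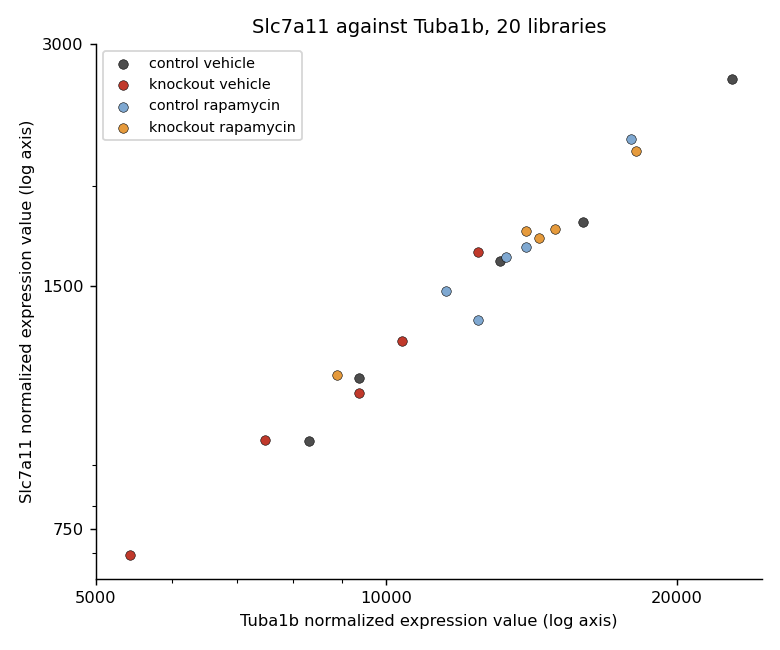
Value of Slc7a11 against that of Tuba1b in the 20 libraries, both on log axes, coloured by group. The points lie along one line across all 4 groups (r = 0.99), with Slc7a11 at 10.9% to 13.3% of Tuba1b.

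Of the 28 pairs among the 8 genes, 2 were correlated over the 20 libraries after adjustment. Slc3a2 and Slc7a11 had r = 0.75 (permutation p = 0.00013, adjusted p = 0.00364) and rho = 0.77 (p = 0.00011, adjusted p = 0.00308). The r was 0.74 without the 2 libraries farthest from the median, 0.63 with group means removed and 0.77 with pool means removed. Slc3a2 had about the same r with Tuba1b, 0.74 (rho = 0.74; permutation p = 0.00016 and 0.0003), so the pair does not separate the exchanger chain from tubulin. Slc7a5 and Slc7a1 were opposed, with r = -0.66 (permutation p = 0.00163, adjusted p = 0.0228) and rho = -0.71 (p = 0.0008, adjusted p = 0.0112). Here r was -0.67 without the 2 farthest libraries, -0.66 with group means removed and -0.64 with pool means removed. The long-transcript score had r = -0.35 with Slc7a5 and 0.40 with Slc7a1, or -0.58 and 0.51 with group means removed. The part of that score in either pair was not tested. A pool holds 5 libraries, too few for an r of its own. Slc1a5 and Slc38a1, which both lay high in knockout hearts, had r = 0.52 (permutation p = 0.0185, adjusted p = 0.154) and rho = 0.55 (p = 0.0136, adjusted p = 0.127). Their r was -0.15 with group means removed and 0.15 without control vehicle libraries 1 and 3.

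Transcripts of fibroblasts moved with Slc38a1, Slc1a5 and Slc38a2. The long-transcript score, given further on, moved with a partly different set. The summed value of 8 fibroblast markers ran from 22998 to 30889 in control vehicle, 28423 to 59163 in knockout vehicle, 28151 to 38872 in control rapamycin and 33564 to 61074 in knockout rapamycin libraries, and no marker was at 0. All 8 markers were higher in knockout under vehicle, with a median log2 difference of 0.75 and 0 called. In the genotype average the median was 0.47 and 2 of the 8 were called higher, beside 60 of 13548 genes (0.443%) called in either direction. Over the 20 libraries the fibroblast sum had r = 0.77 with Slc38a1 (rho = 0.88, adjusted permutation p = 0.00104 and 8e-05), which was 0.86 without the 2 farthest libraries and 0.60 with group means removed. With Slc1a5 it had r = 0.60 (rho = 0.57, adjusted permutation p = 0.0214 and 0.0375), 0.47 without the 2 farthest libraries and 0.12 with group means removed. With Slc38a2 it had r = 0.52 (rho = 0.55, adjusted permutation p = 0.0484 and 0.0375). The part of fibroblast messenger in the transporter differences was not tested.

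The long-transcript score had r = 0.69 with Slc1a5 (rho = 0.60, adjusted permutation p = 0.00416 and 0.017 over 8 transporters), 0.47 without control vehicle libraries 1 and 3, which were the farthest. It had r = -0.68 with Slc7a11 (rho = -0.69, adjusted permutation p = 0.00424 and 0.0088) and -0.55 with Slc3a2 (rho = -0.60, adjusted permutation p = 0.0246 and 0.017), which were -0.66 and -0.49 without those libraries. For Slc38a1 r was 0.56 (rho = 0.16, adjusted permutation p = 0.0246 and 0.514) and -0.17 without them, so that relation rested on those 2 libraries. With group means removed, r with the score was -0.83 for Slc7a11, -0.72 for Slc3a2, 0.53 for Slc1a5 and 0.31 for Slc38a1. The part of this score in the transporter differences was not tested. Among other cell types, 8 endothelial markers, all higher, had a median of 0.19 in knockout under vehicle, beside 0.07 over all genes tested. The median was 0.28 for 9 macrophage markers (6 higher, 3 lower) and 0.15 for 8 smooth muscle and pericyte markers (5 higher, 3 lower). It was 0.49 for 8 cardiomyocyte markers, which were split, with 5 higher and 3 lower, from -0.57 to 1.10. The 4 lymphocyte markers tested had 0.36. The 6 erythroid markers tested lay at -1.64, with 2 called lower, and the 5 atrial markers at 3.86 with 0 called. Over all genes, 33 of 13548 (0.244%) were called in either direction in knockout under vehicle. The atrial median was 2.75 for rapamycin in control hearts, -1.05 for rapamycin in knockout hearts and 0.34 for knockout under rapamycin.

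The genes most like each transporter over the 20 libraries were taken from 10338 tested genes with a mean of at least 100. For Slc1a5 the nearest was Thbs2, a matrix glycoprotein (r = 0.87). For Slc38a1 they were Adrbk2, a receptor kinase (0.90), and Dpysl3 (0.90), and for Slc3a2 the elongation factor Eef1a1 (0.87) and Gm5506 (0.87). For Slc7a11 they were Gm6682 (0.995) and Tuba1b (0.989), which both match its 3' stretch. The nearest genes of Slc38a2, Samd8 and Ankrd13c, had 0.82 each. Those of Slc7a6, A830007P12Rik and Ankrd23, had 0.81 and 0.78. Those of Slc7a1, Fam55d and Epb4.1l4a, had 0.78 each, and those of Slc7a5, AI597479 and Ttc39c, 0.74 each. Without control vehicle libraries 1 and 3 these r ran from 0.72 to 0.99, and each is the best of many genes.

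Other amino acid transporters of the cell surface were set beside the 8, from a list of 29 in the file of which 17 were tested. Slc1a3, a glutamate transporter, rose with knockout averaged over drug, the 1 call of this list in any of the 7 comparisons. It was at 35.2 ± 12.99 in control vehicle, 71.4 ± 14.5 in knockout vehicle, 43.7 ± 8.96 in control rapamycin and 68.8 ± 16.2 in knockout rapamycin hearts (SD, n = 5 each). Its log2 change was 0.84 (SE 0.17, adjusted p = 0.0391), where 60 of 13548 genes (0.443%) were called, and the call was thin. It was lost with no filter (adjusted p = 0.0516), after quantile normalization (0.0534), with a pool term (0.0565) and without control vehicle libraries 1 and 3 (0.0532), and held in 8 of 20 fits that left out 1 library (adjusted p from 0.0147 to 0.0865). Slc43a1, the leucine carrier LAT3, was at 32.1 ± 10.9, 60.2 ± 17.1, 53.8 ± 4.96 and 74.9 ± 16.02 in the same order of groups. Its genotype difference was 0.68 (adjusted p = 0.0550) and its drug difference 0.55 (adjusted p = 0.208). Slc1a1, a glutamate and cysteine carrier, was at -0.41 (adjusted p = 0.218) and Slc36a2, a proton-coupled carrier of small amino acids, at -0.36 (adjusted p = 0.242) for genotype. For drug, Slc38a4 was at 0.55 (adjusted p = 0.236), Slc36a2 at -0.46 (adjusted p = 0.309) and the scarce Slc1a7 at -1.35 (adjusted p = 0.370). In knockout under vehicle the 17 had a median log2 difference of 0.20, the same to 2 decimals as the 8 transporters.

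Carriers of the lysosome membrane and the genes of amino acid sensing to mTORC1 held no call in any of the 7 comparisons, among 9 and 26 genes tested. Averaged over drug, Slc36a1 (PAT1) was at 0.25 (adjusted p = 0.263) and Slc15a3 at 0.24 (adjusted p = 0.594). Slc38a9, the arginine sensor of the lysosome, was at -0.28 (adjusted p = 0.226) and the cationic amino acid exporter Pqlc2 at -0.37 (adjusted p = 0.151). For drug, Slc38a9 was at -0.20, Slc38a7 at -0.13, Slc15a4 at 0.07 and Slc7a14 at 0.26. Of the genes of amino acid sensing, Rragd, a Rag GTPase, was at 0.34 (adjusted p = 0.151) and Lars, the leucyl-tRNA synthetase, at 0.28 for genotype. The GATOR1 subunit Nprl2 and the KICSTOR subunit Kptn were both at -0.28 (adjusted p = 0.194 and 0.232). Sesn3, a sestrin, was at -0.43 for drug (adjusted p = 0.194), with Nprl2 at -0.22, Lars at 0.17 and Rraga at 0.08.

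Of 27 genes of the amino acid response, 2 were called, and in opposite directions. Over all genes, 33 of 13548 (0.244%) were called under vehicle and 60 (0.443%) in the genotype average. Mthfd2, a mitochondrial folate enzyme and known ATF4 target, was at 40.8 ± 8.02 in control vehicle and 143 ± 50.7 in knockout vehicle hearts (log2 change 1.73, SE 0.27, adjusted p = 0.00625). Under rapamycin it was at 63.9 ± 21.8 in control and 76.6 ± 20.9 in knockout hearts. Chac1, which degrades glutathione and is also a known ATF4 target, was at 433 ± 121 and 189 ± 65.5 under vehicle (log2 change -1.22, SE 0.24, adjusted p = 0.0305). Averaged over drug both were called as well, Mthfd2 at 1.01 (adjusted p = 0.0196) and Chac1 at -0.88 (adjusted p = 0.0239). Without control vehicle libraries 1 and 3 neither was called under vehicle, at 1.75 (adjusted p = 0.0812) and -1.05 (adjusted p = 0.363), or averaged over drug (adjusted p = 0.0726 and 0.0970). With only the groups compared, the adjusted p under vehicle was 0.0723 and 0.199, and with 1 library left out Mthfd2 held in 20 of 20 fits under vehicle and Chac1 in 15 of 20. Atf4 itself was at 985 ± 359 in control and 1369 ± 455 in knockout vehicle hearts (log2 difference 0.48, adjusted p = 0.148), and Asns, asparagine synthetase, had 0.40 (adjusted p = 0.278).

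In the genotype average Phgdh, the first enzyme of serine synthesis, was at 0.55 (adjusted p = 0.207) and Psph, the last one, at -0.30 (adjusted p = 0.241). For drug, Atf3 was at 0.57 (adjusted p = 0.511), Nupr1 at 0.41, Atf4 at -0.23 and Psph at -0.17. The 9 genes of the MYC network, which is known to raise several of these transporters, held no call in any of the 7 comparisons. Myc was at -0.27 in knockout under vehicle (SE 0.32, adjusted p = 0.568) and at 0.46 for drug averaged over genotype (adjusted p = 0.552). For genotype, Mlxip was at 0.11, Mnt at 0.05, Max at -0.18 and Mlx at -0.29, and for drug Mlxip was at 0.25, Mlx at -0.09 and Mxd4 at -0.08.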

How the data were processed

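Poly(A) RNA of heart ventricle was sequenced in 4 pools of 5 libraries, each holding every group at least once, per the labels. Each pool has its own lane code in the column names, so pool and lane cannot be told apart. The deposited file holds an expression signal, normalized by the authors, whose upper quartile of values above 0 is 996.6 to 1000 in every library. Build mm9, Picard 1.64, SAMtools and RSEM are named in the submitters' processing notes; the aligner is not given in the sources used here. Values are not counts: 87.8% to 89.4% of low values were whole multiples of 1 step within 0.05 reads, too few to recover reads, and depth is implied from that step.

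From these values, log2(value + 1) was fitted with limma 3.58.1 (R 4.3.3, intensity trend, a mean per group, all 20 libraries) for genes at 10 or more in at least 5 libraries (13548 genes), with Benjamini-Hochberg adjustment over all of them at 0.05. The pseudocount of 1 makes a log2 difference understate the change of low genes. The fit was tested on simulated data with independent noise for each gene. Such data lack variation shared between genes, so that test cannot show how stable the calls are here. Replicates are separate samples per the design text, which calls them biological. The long-transcript score is the median log2 deviation from the gene means of the longest transcripts minus that of the shortest ones. Levels per kb use the longest transcript of GENCODE vM21, and shared stretches were found with blastn 2.17.0. Ratios were compared with exact permutation tests, and correlations with 100000 permutations (scipy 1.17.1), in families of 28 pairs and of 8.

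The rule for named genes takes all 8 transporters and Acsl1, any called gene of the other lists, the 2 with the lowest p in each direction for genotype and for drug, Atf4, Asns, Chac1 and Myc, and the 2 genes most like each transporter, of which 1 is not reported here. The transporters and lists were chosen with earlier results of these data known. Tuba1b, the fibroblast sum and the long-transcript score were set beside the transporters after their values were seen. Alternatives were pseudocounts of 0.5 and 10, no filter, a mean of at least 100, quantile and median-ratio scaling, a pool term, a replicate block, only the groups compared, and leaving out libraries.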

Additional observations from a re-analysis of the deposited data

Results flagged for a closer look

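In 3 of the 32 sets of 5 libraries (8 transporters in 4 groups), 1 library lay far from the other 4. Chance alone flags about 1 in 20 such sets. Slc7a5 was at 141.952 in control rapamycin 4, below the other 4 libraries at 207 to 228. Slc3a2 was at 1392.73 in knockout vehicle 5, above the other 4 at 1051 to 1132, and without that library its knockout difference under vehicle was called (-0.32, adjusted p = 0.0472), in a fit that called 2565 of 13548 genes. Slc38a1 was at 391.65 in knockout vehicle 3, below the other 4 at 582 to 654.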

How the results depend on the processing

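Of 540 values of the 56 transporter differences (8 genes, 7 comparisons) under settings that left out no single library, 526 kept their direction, 14 reversed and none became a call. The same held for the 4 ratios but for 1 reversal given below. With 1 library left out (1120 values), 12 became calls and 50 reversed. Quantile normalization moved the median of all genes by over 0.1 in the interaction, from -0.087 to 0.031, and in knockout under vehicle, from 0.07 to -0.04.

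Genes called for knockout under vehicle were 33, but 56 with a pool term, 3 with only the groups compared and 4 without control vehicle libraries 1 and 3. Under quantile normalization the split was 25 higher and 22 lower, against 27 and 6. For rapamycin in knockout hearts the 1 call became 0 with a pool term, with the replicate block, after quantile normalization or median-ratio rescaling, with only the groups compared, and without control vehicle libraries 1 and 3. The genotype average had 60 calls, but 37 with no filter and 11 without control vehicle libraries 1 and 3. The drug average had 17, but 0 with a pool term, 5 with the replicate block and 4 without control vehicle libraries 1 and 3. With no filter its split was 6 higher and 11 lower, against 3 and 14. The causes were not tested.

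With 1 library left out, genes called ran from 8 (without control vehicle 1) to 3089 (without control vehicle 5) for knockout under vehicle, 3 to 4 for knockout under rapamycin, 0 to 2 for rapamycin in knockout hearts, 21 to 150 for genotype and 3 to 17 for drug. Transporters called ran from 0 to 3 for knockout under vehicle and 0 to 2 for genotype. The difference ran from 0.54 to 0.75 for Slc1a5, 0.52 to 0.80 for Slc38a1 and -0.32 to -0.19 for Slc3a2 under vehicle, and 0.41 to 0.52 and 0.41 to 0.55 for Slc1a5 and Slc38a1 by genotype.

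Values near 0 changed sign. Quantile normalization gave -0.0098 for Slc7a5 and -0.023 for Slc3a2 (rapamycin in control), -0.053 for Slc7a5 (genotype) and -0.042 for Slc38a2 (rapamycin in knockout). Median-ratio rescaling gave -0.0022 for Slc7a5 (genotype) and -0.053 for Slc3a2 (rapamycin in control). A pool term gave -0.00021 for Slc7a5 (genotype), 0.012 for Slc7a5 (drug) and -0.0022 for Slc38a2 (rapamycin in knockout). Without control vehicle libraries 1 and 3, Slc7a5 was at 0.065 and Slc7a6 at 0.00014 (drug), Slc7a1 at -0.061 (genotype), and the ratio of Slc1a5 to Slc7a5 at -0.026 (rapamycin in control). As a ratio to Tuba1b, Slc7a11 was at 0.091 for knockout under vehicle and -0.036 for rapamycin in knockout hearts.

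With 1 library left out, signs also turned for rapamycin in knockout hearts in Slc1a5 (-0.063 to 0.14), Slc38a2 (-0.034 to 0.079) and Slc7a1 (-0.036 to 0.15). For rapamycin in control hearts they turned in Slc3a2 (-0.062 to 0.061), Slc7a11 (-0.065 to 0.31), Slc7a1 (-0.25 to 0.0040) and the ratio of Slc7a11 to Slc3a2 (-0.051 to 0.25). For genotype they turned in Slc7a5 (-0.043 to 0.055), Slc7a6 (-0.069 to 0.031) and Slc7a1 (-0.025 to 0.10). For drug they turned in Slc7a5 (-0.057 to 0.041), Slc7a6 (-0.058 to 0.041) and Slc7a1 (-0.095 to 0.032). They turned for knockout in Slc7a1 under vehicle (-0.18 to 0.075), and under rapamycin in Slc7a11 (-0.072 to 0.16) and its ratio to Slc3a2 (-0.15 to 0.025).

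Same-numbered libraries share only a number: their deviations correlated at -0.51 to 0.27. With the replicate block 49 genes were called for knockout under vehicle and Slc1a5 had an adjusted p of 0.0824, and no transporter was called in any comparison. Depth limits Slc7a6 most, at 45 implied reads in its lowest library.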
